A study of Mus musculus with 12 samples.

Results

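The comparison set tbGFP-positive against tbGFP-negative mouse embryonic stem cells after 6 h of hyperosmotic stress by the sugar alcohol sorbitol. The libraries were chosen by their title labels, and they were 4 of the 12 in the series: 2 of tbGFP-positive and 2 of tbGFP-negative cells. All 12 came from E14, a mouse embryonic stem cell line of genotype 2C::3xtbGFP, in which turboGFP reports the 2-cell state. Cells were grown with serum and leukemia inhibitory factor, plated without the 2 kinase inhibitors used for expansion, and sorted by tbGFP at 0, 6 or 24 h of sorbitol. The other 8 libraries, tbGFP-positive and tbGFP-negative cells at 0 h and at 24 h, entered the fit and are used below only to place the 6 h values. The labels name 1 line, do not say what element drives the reporter, and do not tie the 2 libraries of a group to separate cultures. The p-values therefore measure the spread between these libraries, which may be technical.

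A small share of embryonic stem cells passes at any time through a state that resembles the 2-cell embryo, when the mouse embryo first transcribes its own genome. Dux, a double-homeobox transcription factor annotated as Duxf3, switches on many genes of that stage, among them clustered multicopy families such as Zscan4 and genes that start in repeats of endogenous retroviruses. The sort used a reporter of this program, so a gain of 2-cell genes in tbGFP-positive cells follows from how the cells were chosen.

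The 2 tbGFP-positive libraries at 6 h held 3581875 and 7832956 counts and the 2 tbGFP-negative libraries 6583584 and 5045092. They differed in how well they repeated. Within the tbGFP-positive group, counts varied with a coefficient of variation of 47.4%, against 14.5% in tbGFP-negative cells at 6 h and 14.7% to 29.1% in the other 4 groups. Among genes over 20 CPM (counts scaled to library size), 2.71% lay more than 4-fold apart between the 2 tbGFP-positive libraries at 6 h, against 0% to 0.243% in the other 5 groups. Calls are therefore given by 2 rules. The first is edgeR's quasi-likelihood test on all 12 libraries, which share 1 estimate of the spread. The second asks that a gene also pass in a fit of the 4 libraries at 6 h alone, and such a gene is said to have passed in both fits.

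Of 19384 genes tested, 1342 (6.92%) stood higher in tbGFP-positive cells and 1012 (5.22%) stood lower, at an adjusted p under 0.05. In both fits 587 (3.03%) were higher and 21 (0.108%) lower, while the fit of the 4 libraries alone called 4.29% of the genes it tested. The voom fit of limma, with 1 weight per group, called 6.36% higher and 0.691% lower. The median log2 fold change of all genes was -0.07. Of the 587, 517 had a mean under 10 CPM in tbGFP-negative cells, so most of the genes that held in both fits were nearly silent there. With upper-quartile factors in place of the trimmed mean of M-values, the median of all genes was -0.40 and higher genes made up 32.5% of the calls (1182 higher, 2454 lower), not 57%. With TMM and singleton pairing they made up 43.1% (1223 higher, 1612 lower). Without replicate 1 or 2 of the tbGFP-negative group, 757 or 794 genes were higher and 326 or 344 lower, and without replicate 1 or 2 of the tbGFP-positive group, 1784 or 2489 were higher and 2442 or 2861 lower. Without replicate 1 or 2 of the tbGFP-negative group at 24 h, 649 genes were lower in each case, and without replicate 1 of the tbGFP-positive group at 24 h, 637.

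**Figure D1:**
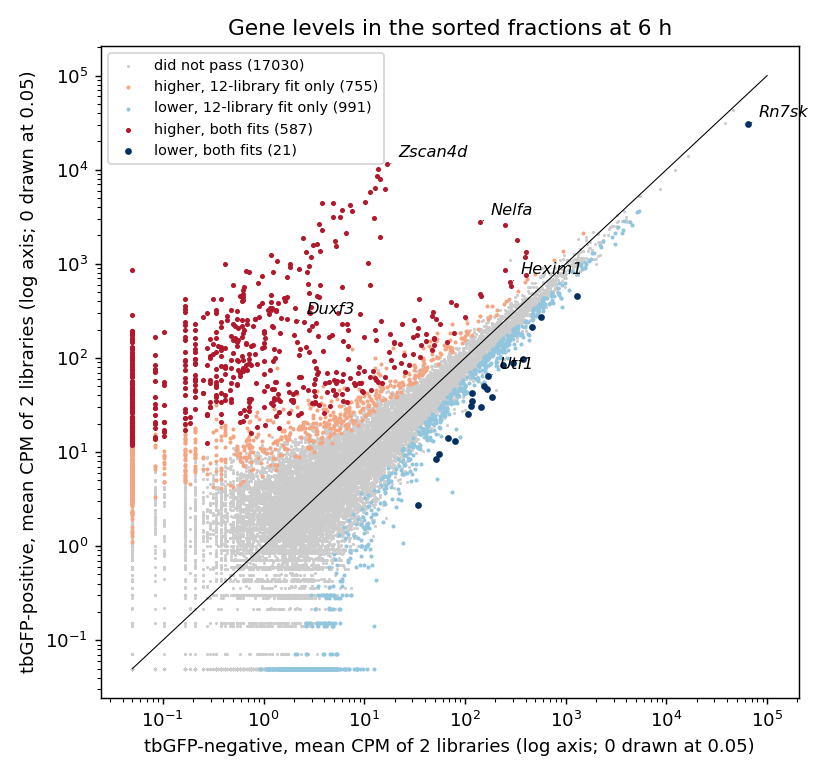
Mean CPM of each tested gene in tbGFP-negative (x axis) and tbGFP-positive cells (y axis) at 6 h, both on log axes with 0 drawn at 0.05, n = 2 libraries a group. The 587 genes higher in both fits lie above the diagonal, 517 of them left of 10 CPM, while the 21 lower in both fits lie below it.

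The largest shares of the counts among the 2-cell families went to Zscan4 and the Eif1a-like genes. The Zscan4 genes encode SCAN-domain zinc finger proteins that mark 2-cell embryos, and the 9 tested took 5.39% and 4.33% of all counts in the tbGFP-positive libraries and 0.00804% and 0.0075% in the tbGFP-negative ones. All 9 were higher, 8 of them in both fits. Zscan4d (chromosome 7, 11161374 to 11166159, minus strand, GRCm38) was at 12489 and 10239 CPM in tbGFP-positive and at 18.3 and 15.6 CPM in tbGFP-negative cells. Its groups were far apart, with a log2 fold change of 9.38 ± 0.25 (SE; adjusted p = 1.27e-12). Zscan4-ps1, annotated as protein-coding despite its name, was at 4567 and 4219 against 6.21 and 3.54 CPM (9.79 ± 0.32, adjusted p = 1.3e-11).

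The 10 Eif1a-like genes, relatives of a translation initiation factor gene that lie together on chromosome 12, were all higher in both fits. Gm8300 was at 5578 and 5910 against 12.4 and 10.4 CPM (8.97 ± 0.21, adjusted p = 7.87e-13), and Gm5662 was at 5702 and 6712 against 15.6 and 16.4 CPM. The family took 1.91% and 2.08% of tbGFP-positive counts. All 5 Usp17-like deubiquitinase genes were higher in both fits, with Usp17la at 969 and 912 against 2.35 and 3.33 CPM and Usp17ld at 867 and 583 against 1.34 and 2.08 CPM.

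All 4 Tcstv genes were higher in both fits, and none had a count in either tbGFP-negative library. Tcstv3 was at 139 and 73.3 CPM, at least 338-fold above a floor of 3 counts over the tbGFP-negative group, and AF067061 was at least 284-fold higher. Of 4 Tdpoz genes, which encode TRAF and POZ domain proteins, all were higher and 3 in both fits. Tdpoz3 was the least even of them, at 526 and 1617 against 1.68 and 1.04 CPM (9.57 ± 0.62, adjusted p = 6.99e-07).

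Duxf3 itself (chromosome 10, 58229979 to 58232675, minus strand) was at 181 and 307 CPM in tbGFP-positive and 2.52 and 1.66 CPM in the tbGFP-negative libraries (6.84 ± 0.42, adjusted p = 9.91e-09). Its 2 groups did not overlap, although the 2 positive libraries differed more for Duxf3 than for Zscan4d. All 3 tested Obox homeobox genes were higher, 2 in both fits. Obox6 was at 51.3 and 73.5 against 2.01 and 2.5 CPM.

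The PRAME-like list, which encodes leucine-rich repeat proteins, was mixed: 5 of 9 tested members were higher, all in both fits, and 4 did not pass. Gm12794 was at 3868 and 3657 against 6.88 and 5.2 CPM and Pramef25 at 1638 and 1897 against 4.19 and 6.03 CPM. Pramef12 in contrast was at 165 and 165 against 186 and 188 CPM (-0.18, adjusted p = 0.606). Of 12 single-copy 2-cell genes, 9 were higher, 7 in both fits, among them the arginase gene Arg2 (211 and 274 against 3.02 and 2.08 CPM) and the transporter gene Abcb5 (61.9 and 68.2 against 0.335 and 0.832 CPM). Kdm5b, a histone demethylase gene on that list, did not pass (305 and 441 against 327 and 332 CPM). In all, 50 of 57 tested members of the 2-cell lists were higher and 0 lower, with a median log2 fold change of 8.73 beside -0.07 for all genes.

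**Figure D2:**
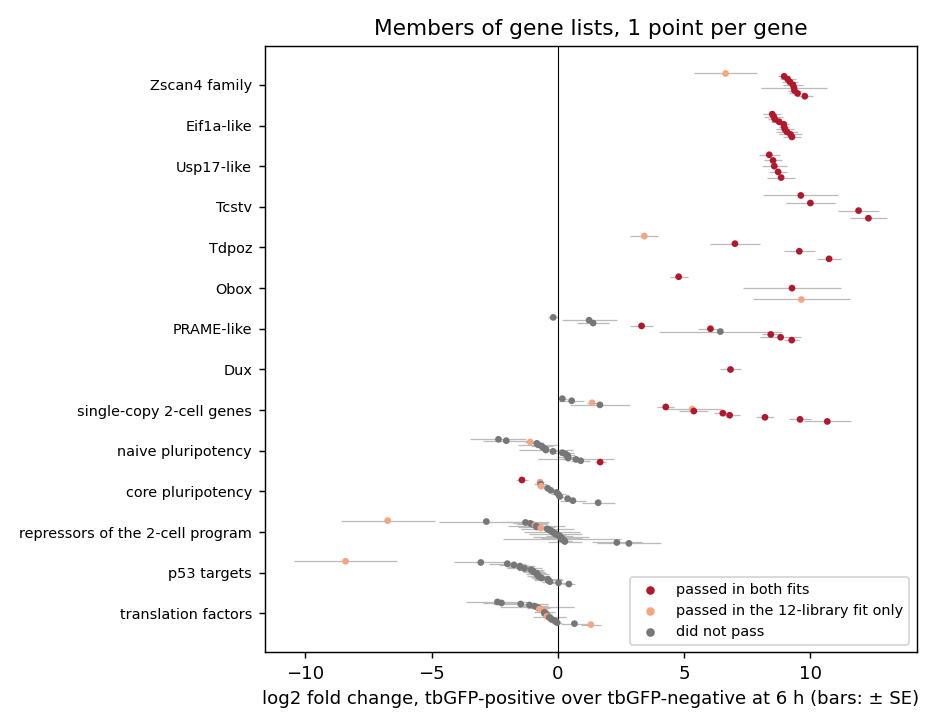
Log2 fold change of each tested list member (points, bars ± SE) between tbGFP-positive and tbGFP-negative cells at 6 h, 1 row a list, coloured by the fits in which the gene passed. Most points of the 2-cell lists lie far to the right of 0, with a median of 8.73, while the pluripotency, p53 and translation lists lie around or below 0.

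These families share near-identical copies, and how the authors' counting divided shared reads is not given in the sources used here, so values of single copies are uncertain. Windows of 2000000 bases were ranked by their number of higher genes, and the first ones are given as a description, since the ranking fixes that they hold many. On chromosome 7, 30 of 43 tested genes between 14000001 and 16000000 were higher, the most abundant of them Obox4 pseudogenes, and 20 of 30 between 10000001 and 12000000, around Zscan4. On chromosome 5, 16 of 19 between 94000001 and 96000000 were higher, led by BC061212 at 556 and 290 against 0.335 and 0.416 CPM. Pseudogenes were called higher more often than the 6.92% of all genes: 320 of 2947 tested (10.9%), and 33% of unprocessed pseudogenes, 106 of 321.

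By the largest fold change among genes with counts in all 4 libraries, the leading increases were the pseudogenes Gm45551 (650 and 530 against 0.168 and 0.832 CPM) and Gm4971 (3994 and 4851 against 2.18 and 5.41 CPM). Among 362 higher genes with no count in either tbGFP-negative library, the most abundant was the pseudogene Zfp353-ps, at 1032 and 678 CPM and at least 2840-fold higher. Next came Gm28940, an antisense gene at 360 and 215 CPM and at least 940-fold higher, whose reads cannot be told from those of the opposite strand without the strand setting. Of these 362 genes, 348 had counts in both tbGFP-positive libraries at 0 h, and 354 did at 24 h.

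A stretch of sequence recurred in the promoters of higher genes that lie on different chromosomes. RefSeq promoter windows (250 bases before to 50 after the start, GRCm38.p6) were matched for 567 higher, 592 lower and 10659 tested genes. The stretch was found by comparing promoters of genes already called, so its counts are a description. It is ACACACCTTTAATC, read on both strands, the run of 14 bases common to the windows of Sp110 and Gm35974 that most higher genes hold. It stood in 40 of all 27025 genes with a window (0.148%), in 14 higher genes (2.47%), in 0 lower genes and in 16 of those tested (0.15%). The 2 tested genes that hold it and did not pass were Gm16381 and Zbed3. Of the 14, 6 were higher in both fits: Sp110, Gm35974, Gm12724, Gm12790, Gm20765 and the 2-cell gene Zfp352, a zinc finger gene at 45.6 and 23.4 against 0 and 0 CPM. For comparison TGCACAC, a motif known for Zscan4 proteins, was found on either strand in 4.94% of higher and 5.07% of lower genes, beside 4.5% of those tested and 5.02% of all. Among genes higher in both fits, 17 of 204 held TGCACAC (8.33%) and 2.94% the longer stretch.

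Sp110, a nuclear body protein gene, was at 26.6 and 29.5 against 0.671 and 0.624 CPM, and the noncoding gene Gm35974 was at 104 and 89.9 against 0 and 0.416 CPM. Their windows are printed to show how far the promoters of 2 unrelated genes agree. Capitals mark runs of 14 or more bases found in the windows of at least 7 of the 14 genes. The Sp110 window is at chr1:85603842-85604141 on the minus strand and the Gm35974 window at chr16:3468210-3468509 on the plus strand. The Sp110 gene counted here, from GENCODE, runs from 85576899 to 85598817. The RefSeq window of Sp110 therefore lies upstream of the start of the counted gene model.
Sp110: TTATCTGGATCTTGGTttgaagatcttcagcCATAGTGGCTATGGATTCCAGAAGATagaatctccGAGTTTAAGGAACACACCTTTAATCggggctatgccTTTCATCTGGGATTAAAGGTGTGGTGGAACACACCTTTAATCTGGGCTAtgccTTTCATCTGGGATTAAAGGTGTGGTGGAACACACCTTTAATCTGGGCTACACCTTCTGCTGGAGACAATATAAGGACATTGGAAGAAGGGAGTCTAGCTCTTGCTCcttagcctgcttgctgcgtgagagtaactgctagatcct
Gm35974: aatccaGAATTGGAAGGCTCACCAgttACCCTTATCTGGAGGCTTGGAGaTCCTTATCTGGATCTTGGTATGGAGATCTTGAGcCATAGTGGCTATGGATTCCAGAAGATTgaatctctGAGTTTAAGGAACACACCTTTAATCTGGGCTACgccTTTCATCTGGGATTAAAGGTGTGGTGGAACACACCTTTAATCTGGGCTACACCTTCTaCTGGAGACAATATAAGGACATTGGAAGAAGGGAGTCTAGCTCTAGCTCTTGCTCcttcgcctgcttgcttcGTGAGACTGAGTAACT
In these windows 222 of 300 bases of Sp110 and 260 of 300 of Gm35974 were in capitals. What the stretch is, and whether transcripts in these cells start in it, was not tested.

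Of the genes higher in both fits, 70 were already at 10 CPM or more in tbGFP-negative cells, 62 of them outside the 2-cell lists and 53 of those protein-coding. The genes of this paragraph were singled out after their values were seen, except Nelfa, Klf2, Jun, Krt8 and Krt18, which stand in gene lists. Nelfa encodes a subunit of the negative elongation factor, which holds RNA polymerase II near promoters and is also known as a driver of the 2-cell program. It was at 2456 and 3125 against 136 and 144 CPM (4.32 ± 0.21, 20-fold, adjusted p = 7.88e-10). The next 3 genes stand for no list. Gtf2b, the initiation factor TFIIB, was at 495 and 456 against 157 and 126 CPM (1.75 ± 0.17, adjusted p = 2.18e-06). Snw1, a transcription and splicing coregulator gene that lies among the Eif1a-like genes, was at 1108 and 1247 against 416 and 378 CPM (1.57 ± 0.15, adjusted p = 1.57e-06). Eloa, the elongin A subunit, was at 576 and 588 against 266 and 310 CPM (1.01 ± 0.15, adjusted p = 0.000194).

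Hexim1 encodes the protein that, together with the 7SK RNA, holds the elongation kinase P-TEFb inactive. It was at 749 and 545 against 273 and 286 CPM (1.21 ± 0.25, 2.31-fold, adjusted p = 0.00472; 0.0442 in the fit of the 4 libraries). Without replicate 1 or 2 of the tbGFP-negative group Hexim1 did not pass (1.11, adjusted p = 0.0818, and 1.19, adjusted p = 0.0622). The RNA partner went the other way. Rn7sk, the 7SK gene (chromosome 9, 78175303 to 78175633, minus strand), was at 34186 and 27206 CPM in tbGFP-positive and at 66385 and 62838 CPM in tbGFP-negative cells. That is a log2 fold change of -1.07 ± 0.18 (adjusted p = 0.000866; 0.0337 in the fit of the 4 libraries). In the voom fit with 1 weight per group Rn7sk did not pass (adjusted p = 0.252).

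Rn7sk was also the clearest change of direction over time. At 0 h it was higher in tbGFP-positive cells (55917 and 37039 against 29854 and 29108 CPM), and so it was at 24 h (75616 and 52512 against 37217 and 37899 CPM). The gap at 6 h differed from that at 0 h by -1.73 ± 0.26 (adjusted p = 0.0119) and from that at 24 h by -1.84 ± 0.26 (adjusted p = 0.00144). The tbGFP-negative libraries were highest at 6 h and the tbGFP-positive libraries lowest. Hexim1 in contrast kept its gap, which differed by 0.21 ± 0.35 from 0 h (adjusted p = 0.869) and by -0.01 ± 0.35 from 24 h (adjusted p = 1).

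**Figure D3:**
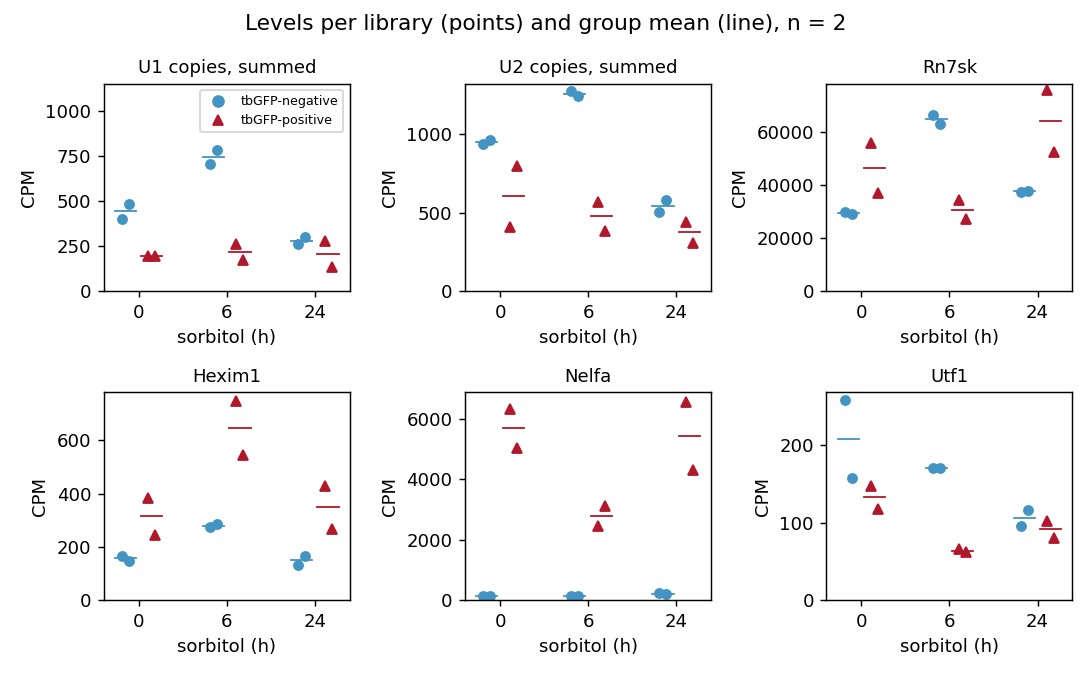
CPM per library (points) and group mean (line, n = 2) at 0, 6 and 24 h of sorbitol in tbGFP-negative and tbGFP-positive cells, for the summed U1 and U2 copies and 4 genes. Rn7sk was lower in tbGFP-positive cells only at 6 h of the 3 times, when the U1 and U2 sums of tbGFP-negative cells were at their highest. The U1 and U2 sums were lower in tbGFP-positive cells at 0 h as well.

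Small noncoding RNAs made up most of what was lower in both fits: 14 of the 21 genes, 7 of them small nuclear RNAs (snRNAs), 3 small nucleolar RNAs and 2 of the class with Rn7sk. In the fit of 12 libraries 15.2% of 79 snRNA and 9.94% of 161 small nucleolar RNA genes were lower, beside 5.22% of all genes. The classes did not all go one way: of 174 microRNA genes 3.45% were lower and 19% higher, beside 6.92% higher of all genes. The 7 snRNA genes were all copies of U1 or U2, the spliceosomal RNAs that recognise the 5′ splice site and the branch point. Of 19 tested genes that start with the U1 5′ end ATACTTACCTG, 7 were lower, 4 in both fits, and 0 higher, with a median of -2.17. Of 11 that start with the U2 5′ end ATCGCTTCTCGGCC, 5 were lower, 3 in both fits, and 0 higher, with a median of -1.26. Summed, U1 copies were at 265 and 172 CPM in tbGFP-positive and 706 and 781 CPM in tbGFP-negative cells, and U2 copies at 570 and 385 against 1272 and 1239 CPM. Neither sum overlapped between the groups at 6 h. At 0 h both sums were lower in tbGFP-positive cells too. U1 was then at 194 and 197 against 402 and 486 CPM, and U2 at 408 and 799 against 937 and 963 CPM. At 24 h U1 was at 280 and 137 against 260 and 303 CPM. U2 was at 441 and 311 against 503 and 578 CPM. The change of the gap from 0 h did not pass for the U1 gene Gm22513 (adjusted p = 0.576) or the U2 gene Gm22973 (adjusted p = 0.26).

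The copies did not all differ. Gm22513 and Gm24305, of a cluster of U1 genes at 54696782 to 54738622 on chromosome 12, were at 50.1 and 26.8 against 174 and 199 CPM (-2.30 ± 0.37, adjusted p = 0.000579) and at 37.1 and 22.7 against 132 and 156 CPM (-2.28 ± 0.38, adjusted p = 0.000694). Rnu1a1, on chromosome 11, was at 19.9 and 20.6 against 25.3 and 19.3 CPM (-0.14 ± 0.45, adjusted p = 0.881). Their sequences are printed, from the GENCODE M21 transcripts, because they show how little a read has to tell the copies apart. Capitals mark the 5′ end that set the family, and Gm22973 is the U2 gene with the smallest adjusted p.
Gm22513: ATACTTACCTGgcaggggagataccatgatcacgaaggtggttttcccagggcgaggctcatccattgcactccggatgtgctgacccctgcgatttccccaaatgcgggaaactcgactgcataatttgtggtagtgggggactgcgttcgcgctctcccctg
Gm24305: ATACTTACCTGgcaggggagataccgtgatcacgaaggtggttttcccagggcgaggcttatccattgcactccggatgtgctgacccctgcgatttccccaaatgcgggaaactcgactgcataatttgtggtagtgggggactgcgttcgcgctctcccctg
Rnu1a1: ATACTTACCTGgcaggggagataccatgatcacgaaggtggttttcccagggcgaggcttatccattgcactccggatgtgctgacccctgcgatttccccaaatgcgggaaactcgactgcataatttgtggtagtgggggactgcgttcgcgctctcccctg
Gm22973: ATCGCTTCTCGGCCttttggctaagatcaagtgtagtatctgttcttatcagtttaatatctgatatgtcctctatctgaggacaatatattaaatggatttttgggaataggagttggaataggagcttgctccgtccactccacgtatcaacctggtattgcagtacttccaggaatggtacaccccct
Counted from 1 at the 5′ end of Rnu1a1, Gm22513 differs by T60C and Gm24305 by A26G. Gm23804, also in the chromosome 12 cluster, is identical to Rnu1a1 over its 164 bases. It was at 2.72 and 2.7 against 31.4 and 37.4 CPM (-3.66 ± 0.45, adjusted p = 3.49e-05). Gm26444 and Gm22634 are identical to Rnu1a1 as well and were lower, at 20.8 and 7.8 against 79.7 and 98.8 CPM and at 28.7 and 6.81 against 74.3 and 88.6 CPM. Gm22068, on chromosome 11 and also identical to Rnu1a1, was at 60.1 and 48.4 against 37.9 and 40.3 CPM and did not pass (0.47 ± 0.33, adjusted p = 0.374). Reads from within identical copies cannot be assigned to one of them. How such reads were counted is not given, so the values of single copies and the summed values both depend on it. The U2 gene Gm22973 (chromosome 12, 59040335 to 59040525, plus strand) was at 124 and 73.2 against 400 and 352 CPM (-1.94 ± 0.28, adjusted p = 0.00017).

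RNAs that guide modification of other RNAs were among the 21 too. Snora78 was at 23.8 and 37.4 against 119 and 110 CPM, Snord17 at 85.4 and 84.1 against 224 and 258 CPM, and Scarna6, which acts on snRNAs in Cajal bodies, at 59.5 and 42.3 against 149 and 158 CPM. In the voom fit Snora78 and Snord17 did not pass (adjusted p = 0.45 and 0.479). Small RNAs, a class that here includes Rn7sk, took 6.23% and 3.25% of all counts in the tbGFP-positive libraries and 8.91% and 8.17% in the tbGFP-negative ones. Rn7sk alone gave 113281 and 191797 of these counts in the tbGFP-positive libraries and 395770 and 302186 in the tbGFP-negative ones. The shares therefore do not describe small RNAs other than Rn7sk. The part of library preparation in these differences was not tested.

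Among protein-coding genes, 6 were lower in both fits. Utf1, a chromatin-bound factor of undifferentiated embryonic cells, was at 65.5 and 62.3 against 171 and 171 CPM (-1.42 ± 0.24, adjusted p = 0.000825). Smg1, a kinase gene of nonsense-mediated decay, was at 40.7 and 44.7 against 117 and 116 CPM (-1.44 ± 0.20, adjusted p = 9.96e-05), and Nup153, of the nuclear pore, at 263 and 285 against 606 and 544 CPM (-1.07 ± 0.15, adjusted p = 0.000136). The other 3 were Asb1, Cd320 and Adprh. Asb1, a SOCS-box gene, was at 13.9 and 14.3 against 73 and 63.2 CPM. Cd320 was at 11.2 and 7.8 against 43.1 and 68 CPM, less even than the others.

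**Figure D4:**
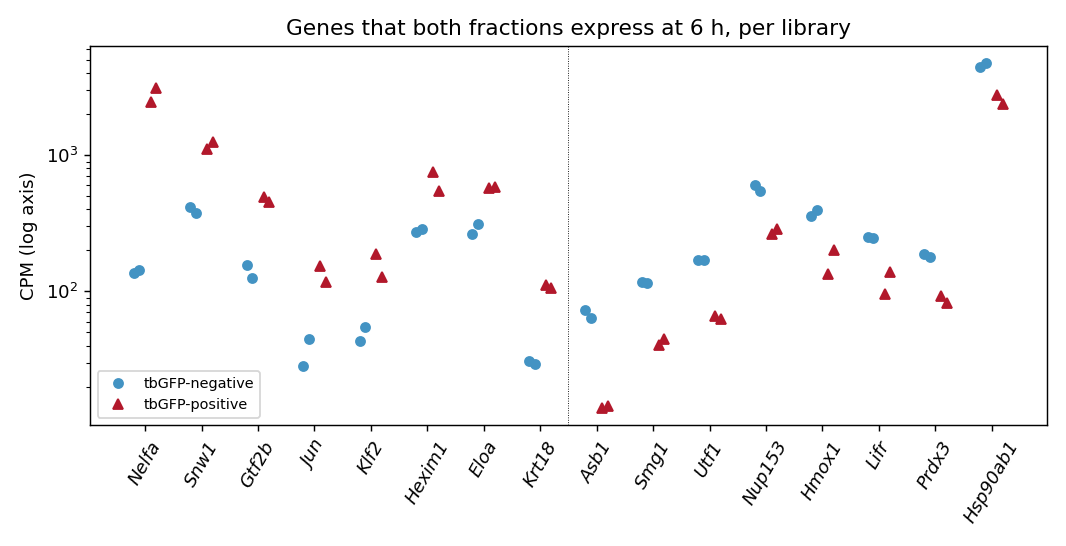
CPM per library (log axis) at 6 h for 16 protein-coding genes that both fractions express, 8 higher and 8 lower in tbGFP-positive cells, 2 libraries a group. The fractions do not overlap for any of the 16; of all tested genes, 19.4% had non-overlapping groups with tbGFP-positive cells higher and 29.9% with them lower. Hmox1, Lifr, Prdx3 and Hsp90ab1 passed in the fit of 12 libraries and not in that of 4.

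Few pluripotency genes passed. Among all tested genes 6.92% were higher and 5.22% lower. Of 12 core pluripotency genes 3 were lower (Utf1, Gdf3 and Lin28a) and 0 higher, with a median of -0.17. Of 18 naive genes 1 was higher and 1 lower, with a median of -0.33. The transcription factor gene Klf2 was at 188 and 128 against 43.4 and 54.9 CPM (1.68 ± 0.22, adjusted p = 8.39e-05). Lifr, a receptor subunit for leukemia inhibitory factor, was at 96 and 138 against 252 and 248 CPM and lost its call in the fit of the 4 libraries (adjusted p = 0.124). Pou5f1 (772 and 1419 against 1644 and 1870 CPM) did not pass (adjusted p = 0.116), and Sox2 was at 367 and 474 against 392 and 405 CPM.

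Of 26 repressors of the 2-cell program, 3 were lower, Ncl and Ehmt2 among them, 0 higher and 23 did not pass, and none passed in both fits. Of all tested genes 5.22% were lower and 6.92% higher. Ehmt2 was near the floor, with 0 counts in both tbGFP-positive libraries against 14 and 10 in the tbGFP-negative ones (adjusted p = 0.0306). The median of the 26 was -0.20. Ncl, the nucleolar protein nucleolin, was at 1177 and 977 against 1781 and 1650 CPM (-0.67 ± 0.20, adjusted p = 0.0385). Trim28, Setdb1 and Rif1 had adjusted p of 0.951, 0.991 and 0.581. Of 7 activators, the 3 that were higher were Nelfa, Duxf3 and Zscan4c.

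Stress lists showed single genes in both directions, beside 6.92% of all tested genes higher and 5.22% lower. Of 14 osmotic genes 3 were higher (Hspa4l, Wnk1 and Hspa1b) and 3 lower (Slc38a2, Slc6a6 and Oxsr1), none in both fits. The amino acid transporter gene Slc38a2 was at 1747 and 2474 against 3766 and 3541 CPM (-0.79 ± 0.16, adjusted p = 0.00492). The inositol transporter gene Slc5a3 was at 322 and 342 against 360 and 320 CPM (adjusted p = 0.952) and its groups overlapped. Of 10 immediate-early genes 2 were higher, Jun in both fits (153 and 118 against 28.2 and 44.9 CPM) and Fosb, and Ier2 was lower.

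Of 20 p53 targets only Rps27l passed, with 0 counts in both tbGFP-positive libraries, while 18 had a negative sign, beside 52.3% of all tested genes, and the median was -0.89. The 2 tbGFP-positive libraries disagreed on several of them. Plk2 was at 435 CPM in replicate 1 and at 1960 CPM in replicate 2, against 2160 and 2037 CPM in the tbGFP-negative libraries (-0.81 ± 0.46, adjusted p = 0.28). Mdm2 was at 21.1 and 83 against 103 and 101 CPM (adjusted p = 0.16). For both genes replicate 2 lay near the tbGFP-negative values and replicate 1 far below.

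Growth genes had mostly negative signs, and few passed the test. Of 23 translation factors 4 were lower (Eif3a, Eif3b, Eif3c and Eif1ax) and 1 higher (Eif4a1), none in both fits. Of all tested genes 5.22% were lower and 6.92% higher. Of the 23, 21 had a negative sign, beside 52.3% of all tested genes, and the median was -0.52. Eif3a was at 864 and 686 against 1269 and 1308 CPM (-0.73 ± 0.15, adjusted p = 0.00499; 0.151 in the fit of the 4 libraries). Of 25 replication genes 4 were lower, the helicase genes Mcm2, Mcm6 and Mcm7 and the polymerase gene Pold1, and the origin gene Orc1 was higher, none in both fits. Pold1 had 0 counts in both tbGFP-positive libraries, and Mcm6 was near the floor, with 0 and 2 counts against 14 and 14. Mcm7 was at 353 and 419 against 680 and 800 CPM. With upper-quartile factors the median of all genes was itself -0.40, and the medians of these lists move with it.

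Of the 1012 lower genes, 404 were at 0 in both tbGFP-positive libraries, and 0 of the 404 passed in the fit of the 4 libraries or in the voom fit. Their median level in the tbGFP-negative libraries was 2.59 CPM and the highest 12.4 CPM. The most abundant were Wrap73, a centrosomal protein gene at 10.4 and 14.3 CPM in tbGFP-negative cells and at least 42-fold lower, Gm43804, at least 37.2-fold lower, and Cnbp, a nucleic acid binding protein gene, at least 32.4-fold lower. At other times the same genes were not absent from tbGFP-positive cells: only 7 of the 404 were at 0 in both libraries at 0 h and 1 at 24 h.

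Genes of this level were missed more widely by both tbGFP-positive libraries of 6 h. Of genes at 2 to 5 CPM in the other 10 libraries, 30.7% and 26.6% had no count in the tbGFP-positive libraries at 6 h, against 6.1% and 7.54% in the tbGFP-negative ones. For genes at 10 to 20 CPM the shares were 2.87% and 1.64% against 3.25% and 3.35%, and above that level the tbGFP-positive libraries missed fewer. The level is a mean that includes tbGFP-positive libraries, so genes silent in tbGFP-negative cells can count at these levels. In tbGFP-positive libraries of other times the shares at 10 to 20 CPM were 0.0507% and 0.558% (0 h) and 0% and 0.0508% (24 h). The tbGFP-positive libraries at 6 h thus still missed more genes there than those of other times. Exactly 1 of the 2 tbGFP-positive libraries lacked counts for 4514 tested genes, and exactly 1 of the 2 tbGFP-negative ones for 1518. Fewer starting molecules and true absence cannot be told apart at these levels, and in sorted bulk RNA neither can fewer cells of a type and less RNA per cell. Of the other 608 lower genes (3.14% of those tested), which had counts, 118 also passed in the voom fit, which called 134 genes lower (0.691%).

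**Figure D5:**
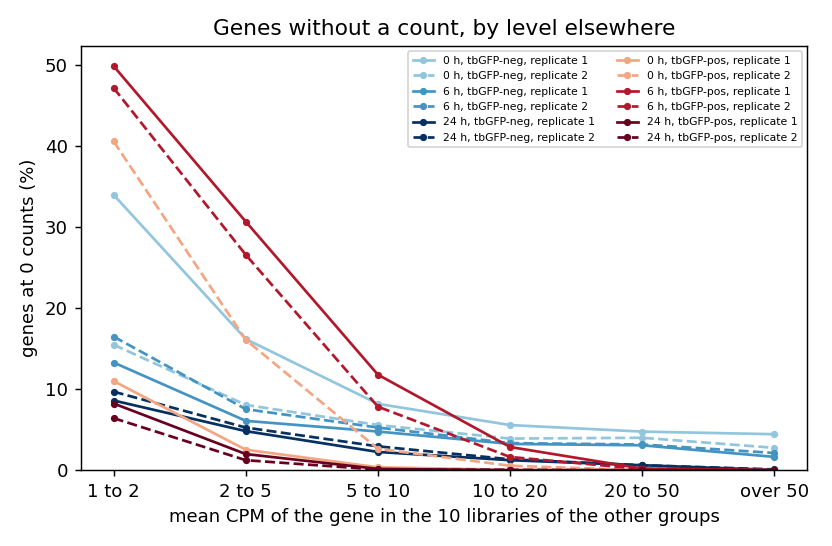
Share of tested genes with 0 counts in each library (lines; solid replicate 1, dashed replicate 2) by the mean CPM of the gene in the 10 libraries of the other groups. Both tbGFP-positive libraries at 6 h lie above all other libraries for genes at 1 to 5 CPM. For genes at 20 to 50 CPM they are at 0.206% and 0.154%, and the tbGFP-positive libraries at 0 h and 24 h at 0%.

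The gap between the fractions differed from the gap at 0 h for 33 genes (0.17% of those tested), and all 33 had a more negative value at 6 h. Of these, 19 were among the higher genes at 6 h, and for all 19 the tbGFP-negative libraries at 6 h lay above those at 0 h, while for 13 of the 19 both tbGFP-positive libraries at 6 h lay below both at 0 h. Because the genes were chosen by a test on these same libraries, the orders are a description. How often all tested genes show them was not counted. Ddit4l, a stress-induced inhibitor of mTOR signaling, was at 242 and 273 against 8.21 and 6.02 CPM at 0 h and at 214 and 153 against 78.8 and 63.6 CPM at 6 h (difference -3.87 ± 0.32, adjusted p = 5.11e-05). The Hsp70 gene Hspa1b was at 141 and 104 against 7.84 and 5.68 CPM and then at 224 and 158 against 100 and 103 CPM (difference -3.32 ± 0.35, adjusted p = 0.000503). Both genes stayed higher in tbGFP-positive cells at 6 h by a smaller step, although neither passed in the fit of the 4 libraries (adjusted p = 0.0596 for Ddit4l and 0.145 for Hspa1b). Without 1 library of either group at 0 h, 10 to 16 genes differed in place of 33: 10 and 15 without replicate 1 and 2 of the tbGFP-negative group, and 16 and 13 without those of the tbGFP-positive group. Without replicate 1 of the tbGFP-positive group at 24 h, 18 did. Without 1 library at 6 h the count moved too, up to 2167.

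The gap at 6 h differed from that at 24 h for 185 genes (0.954%), 126 of them upward. All 126 were among the higher genes at 6 h, and for 123 of them both tbGFP-negative libraries at 24 h lay above both at 6 h, while for 60 both tbGFP-positive libraries at 6 h lay above both at 24 h. The test that chose the 126 used these same libraries, so the orders are a description. Their share over all tested genes was not counted. Zscan4d was at 9134 and 10448 against 233 and 205 CPM at 24 h, which put the gap at 6 h wider by 3.90 ± 0.26 (adjusted p = 1.32e-06). It was not widest at 6 h, because Zscan4d was at 18133 and 19791 against 4.85 and 9.09 CPM at 0 h. Against 0 h the gap at 6 h differed by -1.91 ± 0.27 (adjusted p = 0.00939), and that of Gm8300 by -1.72 ± 0.26 (adjusted p = 0.0127). Without replicate 1 or 2, 97 or 95 genes differed when the library left out was of the tbGFP-negative group at 24 h, and 105 or 107 when it was of the tbGFP-positive group at 24 h. Both differences of gaps use the 6 h libraries and are not independent of each other.

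Markers of other cell types were checked as whole lists, beside 6.92% of all tested genes higher and 5.22% lower. Of 6 tested trophectoderm genes 2 were higher, the keratin genes Krt8 (88.1 and 116 against 37.7 and 33.9 CPM, adjusted p = 0.00104) and Krt18 (112 and 106 against 31 and 29.3 CPM, adjusted p = 0.00582), both in both fits. Krt18 did not pass without replicate 1 or 2 of the tbGFP-negative group (adjusted p = 0.0778 and 0.0845). The list's 12 symbols summed to 206 and 239 CPM in tbGFP-positive and 80.3 and 73.8 CPM in tbGFP-negative cells. Krt8 and Krt18 gave most of these sums in all 4 libraries, so the sums do not describe the other symbols. Cdx2 was at 0 in both tbGFP-positive libraries and Hand1 in all 4. Of 7 primitive endoderm genes Col4a2 was higher (90.8 and 110 against 32.9 and 43 CPM). The 12 primitive endoderm symbols summed to 268 and 316 against 240 and 273 CPM. Of 6 mesoderm and ectoderm genes Sox1 was lower, and none of 4 fibroblast and 4 germline genes passed. The 11 fibroblast symbols summed to 46.2 and 30.1 against 15.9 and 17.9 CPM, and all 4 tested genes had a positive sign. The 11 germline symbols summed to 37.4 and 34.5 against 7.04 and 19.8 CPM, and the 12 of mesoderm and ectoderm to 9.66 and 23.1 against 16.9 and 11.9 CPM. The part of other cells in the results was not tested. Of these lists, the fibroblast genes Twist2, Pdgfrb, Fbn1 and Postn and the germline genes Sycp3, Ddx4, Tdrd1, Stra8 and Mael were at 0 in all 4 libraries.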

How the data were processed

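RNA was measured in 12 libraries, and groups were taken from the title labels. Per the labels' protocols, the kit was a stranded one for total RNA. The authors deposited raw counts per Ensembl transcript, per the file headers. FastQC, HISAT2, featureCounts, DESeq2 and mm10 are named without versions in the submitters' processing notes, and strand setting and treatment of shared reads are not given in the sources used here. Counts were summed per gene by transcript identifier with GENCODE M21 (GRCm38), where 910 of 142446 transcripts, with 0.0606% to 0.0903% of counts, did not match. The 19384 genes with at least 10 counts in at least 2 of the 12 libraries were tested with edgeR 4.0.16 (TMM factors, quasi-likelihood F test, 6 group means, Benjamini-Hochberg adjustment over all genes, two-sided), and 14201 in the fit of the 4 libraries. Each SE was taken as the size of the log2 fold change over the square root of its F statistic. It therefore rests on the spread shared by the 12 libraries, not on that of the 6 h groups alone. CPM are counts over TMM-scaled library sizes, where 3 counts correspond to 0.383 to 0.838 CPM in the libraries at 6 h. Folds against a group at 0 use a floor of 3 counts over that group. They cover counting error only, as reads carried no molecular identifiers. DESeq2 1.42.0 and limma 3.58.1 (voom, 1 weight per group) gave alternatives. The fits of 12 libraries were also run on simulated data with the same spread in all libraries. That run does not cover the larger spread of the tbGFP-positive libraries at 6 h or the fit of the 4 libraries.

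The members, 40 gene lists with 615 symbols and the naming rules were chosen with earlier results of these data known. Named were the 12 largest changes in each direction among genes passing both fits with counts in all 4 libraries, groups that do not overlap and 10 CPM in either group, the 6 most abundant called genes at 0 in a group, a panel, up to 6 called members per list, and the 6 largest changes of the gap per direction. Of these, those that a result turns on are given here. Genes outside the rule were singled out after their values were seen: Hexim1, Eloa, Snw1, Gtf2b, Rnu1a1, Gm26444, Gm22634, Gm22068, Smg1, Nup153, Adprh, Snord17 and Scarna6, the genes named for their promoters, and Pramef12, Kdm5b and Cdx2.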

Additional observations from a re-analysis of the deposited data

Results flagged for a closer look

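In these genes the gap between the fractions at 6 h differed from the gap at another time, by the test of the difference of gaps in the fit of all 12 libraries, on the log2 scale. Against 24 h the gap was higher for Gm45551 by 5.11, Gm6489 by 5.16, BC061212 by 5.15, Gm16478 by 4.33, Tmem92 by 4.25 and Gm8711 by 4.23. All 6 were at 1.34 CPM or less in both tbGFP-negative libraries at 6 h.

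Against 24 h the difference was -3.73 for Gm24187, -3.15 for Snora78, -3.65 for Eif3l, -2.95 for Vwa1, -2.92 for Gm24447, -2.68 for 1700064H15Rik and -1.84 for Rn7sk. Against 0 h it was -1.73 for Rn7sk, -4.58 for Eif3l, -5.28 for Stox1, -4.17 for the Hsp70 gene Hspa1a, -3.32 for Hspa1b, -3.87 for Ddit4l and -3.45 for Gm6494.

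Rn7sk and the translation initiation factor gene Eif3l differed from both other times. Eif3l was at 0.302 and 1.84 CPM in tbGFP-positive and 24.2 and 24.1 CPM in tbGFP-negative cells at 6 h, but at 18.8 and 17 against 10.8 and 17.5 CPM at 0 h. Stox1 was at 214 and 223 against 0.373 and 0.795 CPM at 0 h and at 72.4 and 65.5 against 8.89 and 8.32 CPM at 6 h.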

How the results depend on the processing

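Of the 2-cell members 50 were higher, 49 with voom, 45 with only the 4 libraries at 6 h, 52 without the filter, and 46 to 52 when 1 library was left out. Zscan4b, Tdpoz2, Obox5, Ddit4l and Ubtfl1 lost their call with the 4 libraries and Tdpoz3 with voom. The count of lower genes moved more. With upper-quartile factors 2454 were lower, 1810 with counts and 644 at 0 in tbGFP-positive cells, and with singleton pairing 1612, 1111 of them with counts; both kept all 1012. With DESeq2 628 were lower at 0, and the gap differed from 0 h for 276 and from 24 h for 503 genes. Without the filter those were 276 and 605. With only the 4 libraries 587 were higher and 22 lower, 22 with counts and 0 at 0, and 21 of the 1012 were kept. With voom 134 were lower, 134 with counts and 0 at 0, and 118 were kept. When 1 library was left out, 757 to 2489 were higher and 326 to 2861 lower, 198 to 1907 with counts and 117 to 1197 at 0, and the gap differed for 10 to 2167 genes from 0 h and 78 to 2689 from 24 h. The cause was not tested. The omissions of libraries at 0 and 24 h were chosen after seeing the data.

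With the replicate number as a block 1190 genes were higher and 756 lower, 253 of them at 0, and the gap differed for 32 and 162 genes. The labels give no pairing behind the numbers: replicate differences of the 2 groups at 6 h correlated at 0.0869 over 5390 genes, and those of all pairs of groups at -0.241 to 0.359.

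Signs reversed for genes that did not pass. With upper-quartile factors Akr1b3 was at -0.23, Dnmt1 -0.17, Esrrb -0.15, Setdb1 -0.31, Sox2 -0.25 and Trim28 -0.26. With singleton pairing Akr1b3 was at -0.07, Dnmt1 -0.02, Setdb1 -0.15, Sox2 -0.08 and Trim28 -0.09. With voom Chek1 was at -0.37, Dnmt1 -1.22 and Trim28 -0.05. Setdb1 was at -0.01 with library totals and -0.05 without the filter, Dnmt1 at -0.30 with the replicate block, and Slc5a3 at 0.04 with DESeq2 and 0.01 with the 4 libraries. Leaving out 1 library put Akr1b3 at -0.06 to 0.17, Chaf1a at -7.63 to 0.26, Chek1 at -1.29 to 1.34, Dnmt1 at -7.40 to 1.01, Nanog at -0.39 to 0.91, Rif1 at -0.54 to 0.05, Rnu1a1 at -0.37 to 0.00, Setdb1 at -0.07 to 0.03, Sox2 at -0.15 to 0.21, Trim28 at -0.36 to 0.40 and Zfp42 at -7.02 to 0.69. Thinned to 2305061 counts, the tbGFP-positive libraries at 6 h held 17049 and 16520 genes with at least 1 count and the tbGFP-negative ones 21559 and 21749. With a higher minimum of counts per gene the order was the other way. The tbGFP-positive libraries then held 13043 and 12968 genes and the tbGFP-negative ones 11791 and 12246. The cause was not tested.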
